A study of Rattus norvegicus with 6 samples.

Results

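Among the long non-coding RNA (lncRNA) transcripts of the Brown Norway rat, 58 had no reference gene and were abundant in cortex and in outer medulla together, out of 2455 transcripts with values. They lay at 42 of 1646 loci. They were selected on their measured FPKM in the 6 tissues. A transcript was taken when its class code was a dash, which marks a transcript with no reference gene, when its mean FPKM was 1 or more in cortex and in outer medulla, and when each of these means plus 0.1 was at least 3 times the highest mean plus 0.1 among liver, left ventricle, adrenal gland and hypothalamus. FPKM counts fragments scaled to the length of the transcript and to the size of the library. These limits were met by 3.37% of the 1722 transcripts with no reference gene. Because these levels chose the members, their height in cortex and outer medulla over the other tissues is a description and carries no test. The locus XLOC_035736 was left out.

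Every tissue came from male rats of the inbred BN strain aged 6 weeks, with no treatment named, and each tissue was 1 sample in the labels. The groups were cortex, outer medulla, hypothalamus, liver, adrenal gland and left ventricle. RNA was sequenced after a stranded library preparation, and the deposited table held 2 FPKM columns per tissue, called column 1 and column 2. Nothing in the labels tells whether the columns of a tissue are different animals or repeat runs. A p-value here therefore covers only column-to-column spread, possibly technical, within 1 strain, sex and age. The code of the hypothalamus columns was matched by elimination.

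No organ is named in the label of the cortex, so the table was checked with transcripts assigned to marker genes. Of 19 kidney genes listed, only Slc12a1, the salt cotransporter of the thick ascending limb, had a transcript in this table of lncRNAs. The transcript overlapping it had 12.2 and 14.7 FPKM in the cortex columns, 36.5 and 36.6 in those of outer medulla, and at most 1.5 in any other column. Of 14 brain genes, Sox2 and Dlx6 were found, and their 5 transcripts summed to 0.109 and 0.065 FPKM in the cortex columns, 0.028 and 0.0193 in those of outer medulla, and 5.81 and 7.10 in hypothalamus. Of 7 hepatocyte genes 4 were found, and their transcripts summed to 22.9 and 17.3 FPKM in the liver columns. The one at Fga went the other way, with 0 in both liver columns and 1.42 and 1.16 in adrenal gland. Of 8 adrenal genes only Cyp11b3 was found, with 60.5 and 44.4 FPKM in adrenal gland. None of the 6 heart genes had a transcript in the table. The steps between low values implied 17260000 and 14950000 fragments in cortex, 17460000 and 18390000 in outer medulla, and from 3875000 to 31870000 in the other tissues, with liver column 2 the lowest.

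As background, lncRNAs are transcripts with no long open reading frame, many of them present in few tissues, and some act on the genes beside them while others have no known role. The kidney cortex holds glomeruli and proximal tubules, and the outer medulla holds thick ascending limbs and collecting ducts, and both also hold vessels and other segments of the tubule. In bulk tissue, fewer cells of a type and less RNA per cell cannot be told apart. No function is annotated for any of the 58 transcripts, so they are ordered below by level and locus. Coordinates are of build rn5 as the table gives them.

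In cortex the means of the 58 transcripts ran from 1.15 to 89.4 FPKM with a median of 3.37, and in outer medulla they ran from 1.04 to 96.6 with a median of 1.92. In 38 of them both means were under 5, and in 9 both were 10 or more. Their summed FPKM was 429.9 and 463 in the cortex columns and 431 and 443 in those of outer medulla. That was 6.00 and 12.5% of the total FPKM of the table in cortex and 13.7 and 13.9% in outer medulla. In all 58, each of the 4 cortex and outer medulla columns was above each of the 8 other columns. The same held for 40.3% of the 300 transcripts of any class at FPKM 1 or more in both tissues, a contrast that the selection used.

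**Figure D1:**
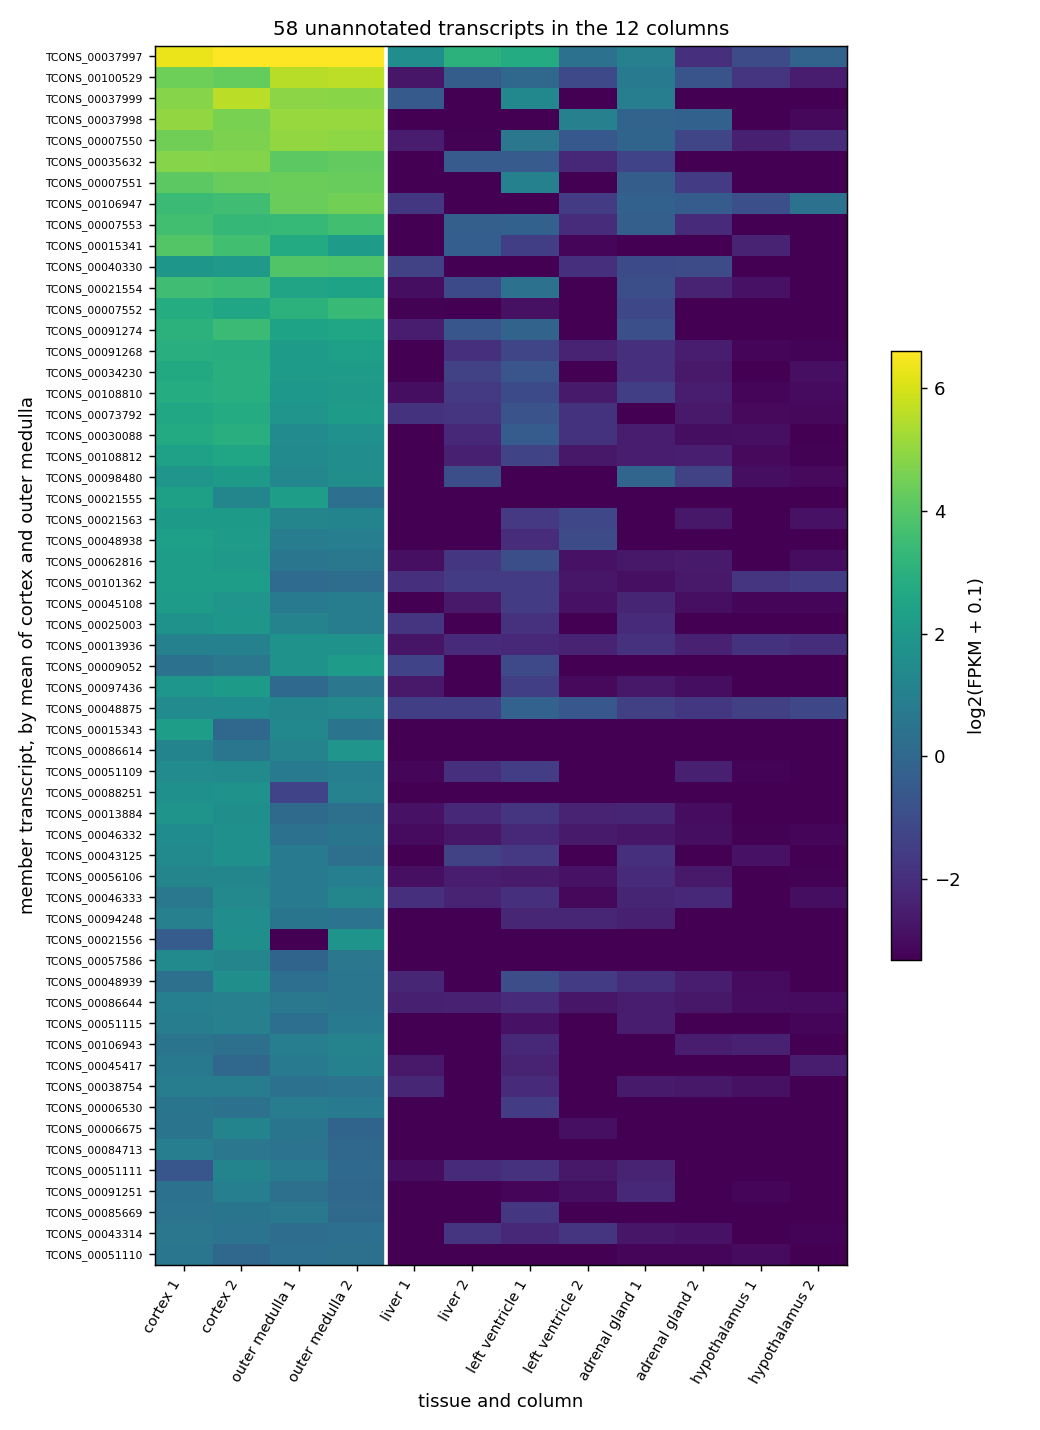
Level of the 58 transcripts (rows, highest mean of cortex and outer medulla at the top) in the 12 columns of the table, as log2(FPKM + 0.1) by colour. The 4 columns left of the white line are cortex and outer medulla, where means ran from 1.04 to 96.6 FPKM, and the 8 columns right of it are the other tissues, where only 4 transcripts reached a mean of 1.

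The most abundant transcript was TCONS_00037997, of 390 bases (chromosome 15, 30010515 to 30035706). It had 80.8 and 98.1 FPKM in the cortex columns, 96.0 and 97.2 in those of outer medulla, 2.87 and 8.24 in liver, 6.83 and 1.23 in left ventricle. In adrenal gland it had 1.92 and 0.157, and in hypothalamus 0.376 and 0.79. Cortex and outer medulla columns overlapped, and all 4 lay far above the rest. The other members of this locus were also short, TCONS_00037998 with 310 bases and TCONS_00037999 with 446. TCONS_00037998 had 32.2 and 24.2 FPKM in the cortex columns and 34 and 34 in those of outer medulla, and TCONS_00037999 had 28.3 and 47.4 in the cortex columns and 29.6 and 29.1 in those of outer medulla. FPKM of transcripts this short depends strongly on the assumed fragment length, a setting not given in the sources used here.

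A locus on chromosome 1 (35676445 to 35681226) held 4 members and no other listed transcript. TCONS_00007550 had 21.7 and 25.2 FPKM in the cortex columns and 32.3 and 30.1 in those of outer medulla, and TCONS_00007551 had 17.0 and 19.8 in the cortex columns and 20.8 and 19.6 in those of outer medulla. TCONS_00007553 had 12 and 9.70 in the cortex columns and 10.1 and 12.1 in those of outer medulla, and TCONS_00007552 had 6.99 and 5.79 in the cortex columns and 8.20 and 10.5 in those of outer medulla. Cortex and outer medulla did not overlap for TCONS_00007550 and TCONS_00007552, where outer medulla was higher, and they overlapped for the other members of the locus. Outside cortex and outer medulla the highest column of this locus was 1.98, for TCONS_00007551 in left ventricle column 1, with 0 in left ventricle column 2.

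The largest ratio to the highest other tissue was 38.2, on the scale of FPKM + 0.1, for TCONS_00035632 (chromosome 15, 8606550 to 8618498). It had 28.0 and 27.0 FPKM in the cortex columns, 17.0 and 18.7 in those of outer medulla, 0 and 0.624 in liver, 0.619 and 0.122 in left ventricle. In adrenal gland it had 0.305 and 0, and in both hypothalamus columns 0. It took between 95.7 and 99.8% of the FPKM of its locus in the cortex and outer medulla columns, so 1 of 4 listed transcripts carried nearly all of it. TCONS_00021555 followed at a ratio of 29.1 and TCONS_00037998 at 26.9, then TCONS_00007552 at 24.0, TCONS_00037999 at 22.8 and TCONS_00007550 at 21.3. For TCONS_00021555 the highest other mean was 0.000356, so the added 0.1 set its ratio, and without outer medulla column 1 that ratio was 12.2. Over all 58 the ratio had a median of 9.40 and quartiles of 6.64 and 12.5.

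TCONS_00100529 (chromosome 8, 33536860 to 33572665), the second most abundant member, was alone at its locus in the table. It had 21.2 and 19.2 FPKM in cortex, which corresponds to about 573 and 450 fragments, and 47.3 and 49.4 in outer medulla, about 1294 and 1424 fragments. A listed locus 13.4 kb away held a transcript that shares a splice junction with Fli1, a transcription factor of the ETS family known from blood and endothelial cells. That transcript had 1.51 and 0.828 FPKM in the cortex columns, 3.23 and 2.17 in those of outer medulla, and 5.17 and 4.10 in left ventricle, its highest tissue. Both had higher values in outer medulla than in cortex, but the one near Fli1 was present in all tissues and TCONS_00100529 stood at 1.64 or less outside cortex and outer medulla.

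TCONS_00013936 (chromosome 1, 287949285 to 287961598) lay 1.61 kb from a locus with a transcript antisense to Emx2, a homeobox transcription factor that the mouse needs to form kidneys. It had 1.98 and 1.94 FPKM in the cortex columns and 3.30 and 3.36 in those of outer medulla, with no overlap between them, and at most 0.173 in any other column. The 3 transcripts of the locus at Emx2 summed to a mean of 0.938 FPKM in cortex, 1.69 in outer medulla and 0.08 in the next tissue, adrenal gland. The antisense transcript itself had 0.000285 and 0.52 FPKM in the cortex columns and 0.00346 and 0.406 in those of outer medulla, so most of that sum came from unannotated transcripts. The tissues stood in the same order at both loci, cortex below outer medulla and both above the rest.

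At 1 member locus the table also listed transcripts antisense to a gene, Zeb1, a zinc finger transcription factor that represses epithelial genes. There TCONS_00045108 (chromosome 17, 52322042 to 52441178) had 4.28 and 3.51 FPKM in the cortex columns and 1.58 and 1.68 in those of outer medulla. Of the 3 transcripts antisense to Zeb1, TCONS_00045111 had 1.41 and 1.06 in the cortex columns and 0.627 and 1.15 in those of outer medulla, and was at or below 0.103 elsewhere. All 3 antisense transcripts had a mean under 1 in outer medulla. The library kit marks strand, but the strand setting of the counting was not given in the sources used here. TCONS_00098480 (chromosome 7, 97946719 to 98071475) lay 19.6 kb from TCONS_00098456, which is antisense to ENSRNOG00000036522. TCONS_00098480 had 3.49 and 4.11 in the cortex columns and 2.34 and 2.91 in those of outer medulla, and TCONS_00098456 had 4.79 and 5.80 in the cortex columns and 2.80 and 2.75 in those of outer medulla.

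A pair of member loci on chromosome 9 stood 4.62 kb apart. TCONS_00106947 (49148500 to 49151866) had 11 and 11.7 FPKM in the cortex columns and 20.3 and 22.6 in those of outer medulla, and TCONS_00106943 (49135188 to 49143878) had 1.30 and 1.17 in the cortex columns and 1.78 and 2.10 in those of outer medulla. Both were higher in outer medulla in every column. Outside cortex and outer medulla TCONS_00106947 was highest in hypothalamus, at 0.44 and 1.23. A further transcript of its locus, TCONS_00106946, had means of 3.02 in cortex and 2.49 in outer medulla and missed the 3-fold ratio at 2.84.

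Whether the shared transcripts favoured cortex or outer medulla is a comparison that the selection did not make, since it set both tissues against the other 4. limma on log2(FPKM + 0.1) tested 604 transcripts of the whole table at a mean of 1 or more in either tissue, with the spread of each pooled over all 6 tissues. The selection still bears on it, because a member had to reach 1 in both. It also kept members low in the other 4 tissues, whose columns enter the pooled spread. The part of this in the number of calls was not tested. Of the 58 members, 5 were higher in cortex at a Benjamini-Hochberg adjusted p below 0.05, against 14.4% of all transcripts tested. None was higher in outer medulla, against 6.95% of all tested. At an unadjusted p below 0.05 in either direction, 11 of the 58 members passed (19.0%), against 33.4% of all tested. With the spread of the cortex and outer medulla columns alone, 19 of the 58 members were higher in cortex and 5 in outer medulla. Of the 604 transcripts tested, 124 (20.5%) and 55 (9.11%) were called in this way. The median SE of the members was 0.53 on the log2 scale with the pooled spread and 0.167 with those columns alone. For all transcripts tested it was 0.511 and 0.318.

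In direction, 40 of the 58 had a higher mean log2 value in cortex and 18 in outer medulla, against 54.6% of all transcripts tested with a higher value in cortex. The median log2 difference, cortex minus outer medulla, was 0.53 for the members (quartiles -0.098 and 0.97) and 0.15 for all 604 (quartiles -0.59 and 1.15). In 33 of the 58 members both cortex columns were above both outer medulla columns, which held for 244 of all 604 tested (40.4%). In 11 of the 58 both outer medulla columns were above both cortex columns, which held for 186 of all 604 (30.8%). A difference of 2-fold or more in favour of cortex was seen in 13 members and in favour of outer medulla in 3, against 27.6 and 16.1% of all tested. Within 1.5-fold lay 26 members, a count that was not made over all tested. Scaling all columns to the same median raised the members' differences by 0.02 to 0.15, with a median of 0.14. Then 44 of the 57 members still tested had a higher value in cortex, against 65.8% of all 482 transcripts tested on that scale. Over the whole table the calls then split into 91 for cortex and 26 for outer medulla, against 87 and 42 with the values as deposited, and those of the members into 7 and 0.

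**Figure D2:**
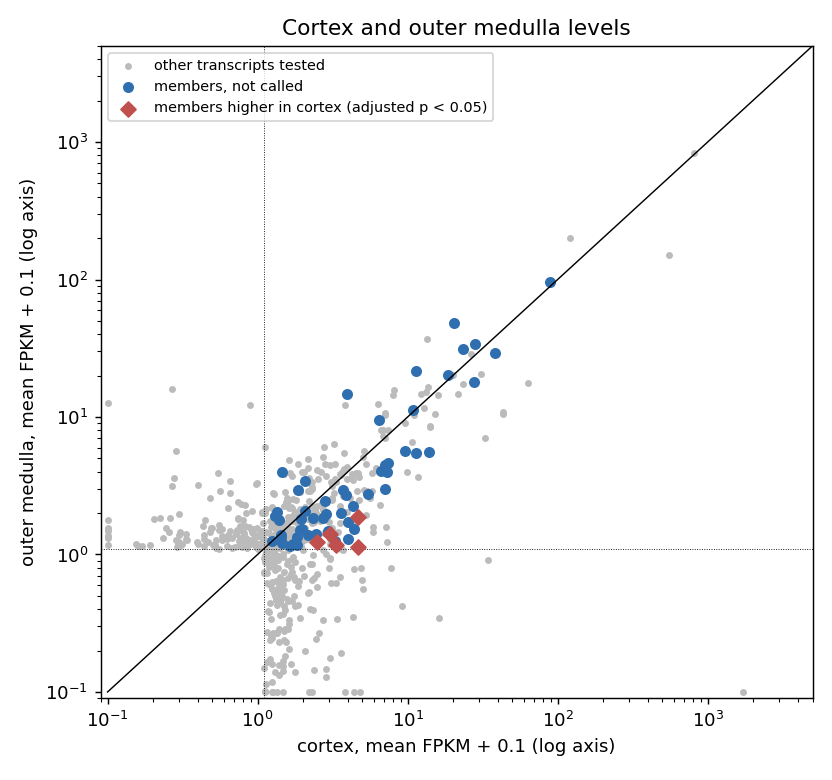
Mean FPKM + 0.1 in cortex (horizontal, log axis) and in outer medulla (vertical, log axis) of the 58 members (large symbols; diamonds are the 5 higher in cortex in the limma test) and of the other transcripts tested (grey). Dotted lines mark an FPKM of 1, which every member had to reach on both axes, and the solid line marks equal levels; 40 of 58 members lie on the cortex side on the mean log2 scale.

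The 5 transcripts called higher in cortex were of moderate level. TCONS_00101362, of 11767 bases (chromosome 8, 69568259 to 69919240), had 4.52 and 4.64 FPKM in the cortex columns and 1 and 1.07 in those of outer medulla (by limma, a log2 difference of 2.04 with an SE of 0.42 and an adjusted p = 0.0094). It corresponds to about 908 and 806 fragments in cortex and 204 and 229 in outer medulla, and it was just inside the FPKM minimum. TCONS_00013884 (chromosome 1, 285882049 to 285893782) had 3.40 and 3.01 in the cortex columns and 0.975 and 1.19 in those of outer medulla (by limma, a log2 difference of 1.49 with an SE of 0.39 and an adjusted p = 0.029). TCONS_00048938 (chromosome 18, 61418077 to 61425000) had 4.76 and 4.43 in the cortex columns and 1.76 and 1.79 in those of outer medulla (by limma, a log2 difference of 1.32 with an SE of 0.37 and an adjusted p = 0.036). In each of these the lower cortex column was well above the higher outer medulla column.

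The others, like TCONS_00101362, were long transcripts. TCONS_00046332, of 17169 bases (chromosome 17, 22805722 to 22824878), had 2.75 and 3.11 FPKM in the cortex columns and 1.26 and 1.35 in those of outer medulla (by limma, a log2 difference of 1.11 with an SE of 0.30 and an adjusted p = 0.032). TCONS_00057586, of 8417 bases (chromosome 2, 257523058 to 257634226), had 2.57 and 2.21 in the cortex columns and 0.829 and 1.44 in those of outer medulla (by limma, a log2 difference of 1.05 with an SE of 0.30 and an adjusted p = 0.038). With the spread of cortex and outer medulla columns alone, TCONS_00057586 lost its call (SE 0.318, limma adjusted p = 0.0871) and the others of the 5 kept theirs. All 5 calls were lost with a pseudocount of 0.01, without either cortex column and without outer medulla column 1. Of the 5, 2 remained with no FPKM minimum or without outer medulla column 2, and 1 remained without either hypothalamus column. Over all settings the adjusted p ran from 2.31e-05 to 0.15 for TCONS_00101362 and from 0.00361 to 0.267 for TCONS_00057586.

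Among members with the largest differences that were not called, TCONS_00088251 (321 bases, chromosome 6, 3595901 to 3612571) had 3.09 and 3.25 FPKM in the cortex columns and 0.301 and 2.01 in those of outer medulla. This corresponds to about 10 and 9 fragments in cortex and 1 and 7 in outer medulla, so its log2 difference of 1.83 (SE 0.64, adjusted p = 0.076 by limma) rests on few fragments. TCONS_00097436 (chromosome 7, 41153703 to 41275912) had 3.63 and 4.18 in the cortex columns and 0.945 and 1.44 in those of outer medulla (by limma, a log2 difference of 1.65 with an SE of 0.53 and an adjusted p = 0.059). TCONS_00062816 (chromosome 20, 16228068 to 16234127) had 4.53 and 4.03 in the cortex columns and 1.41 and 1.47 in those of outer medulla (by limma, a log2 difference of 1.51 with an SE of 0.62 and an adjusted p = 0.13). Both of these had cortex columns above outer medulla columns without overlap. With the spread of cortex and outer medulla columns alone, both were called (limma adjusted p = 0.0262 for TCONS_00097436 and 0.0117 for TCONS_00062816). TCONS_00088251 was not called in that way (limma adjusted p = 0.209).

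In the direction of outer medulla, TCONS_00040330 (736 bases, chromosome 16, 26465059 to 26466673) stood furthest, with 3.68 and 4.05 FPKM in the cortex columns and 14.8 and 14.5 in those of outer medulla. Its log2 difference was -1.90 (SE 0.64, adjusted p = 0.071 by limma), and it was called with the spread of cortex and outer medulla columns alone (limma adjusted p = 0.00758), where its SE was 0.0906. Over all settings its adjusted p ran from 5.02e-05 to 0.598. TCONS_00009052 (413 bases, chromosome 1, 91667512 to 91669126) had 1.25 and 1.46 in the cortex columns and 3.26 and 4.46 in those of outer medulla, about 6 and 6 fragments against 16 and 22, and a log2 difference of -1.43 (SE 0.79, adjusted p = 0.25 by limma). TCONS_00100529, described above, had a log2 difference of -1.26 (SE 0.79, adjusted p = 0.32), TCONS_00106947 one of -0.92 (SE 0.71, adjusted p = 0.43) and TCONS_00013936 one of -0.73 (SE 0.34, adjusted p = 0.18), all by limma. In all of these both outer medulla columns were above both cortex columns. All of them were also called with the spread of cortex and outer medulla columns alone. The limma adjusted p was then 0.0259 for TCONS_00009052, 0.00832 for TCONS_00100529, 0.0139 for TCONS_00106947 and 0.0278 for TCONS_00013936.

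**Figure D3:**
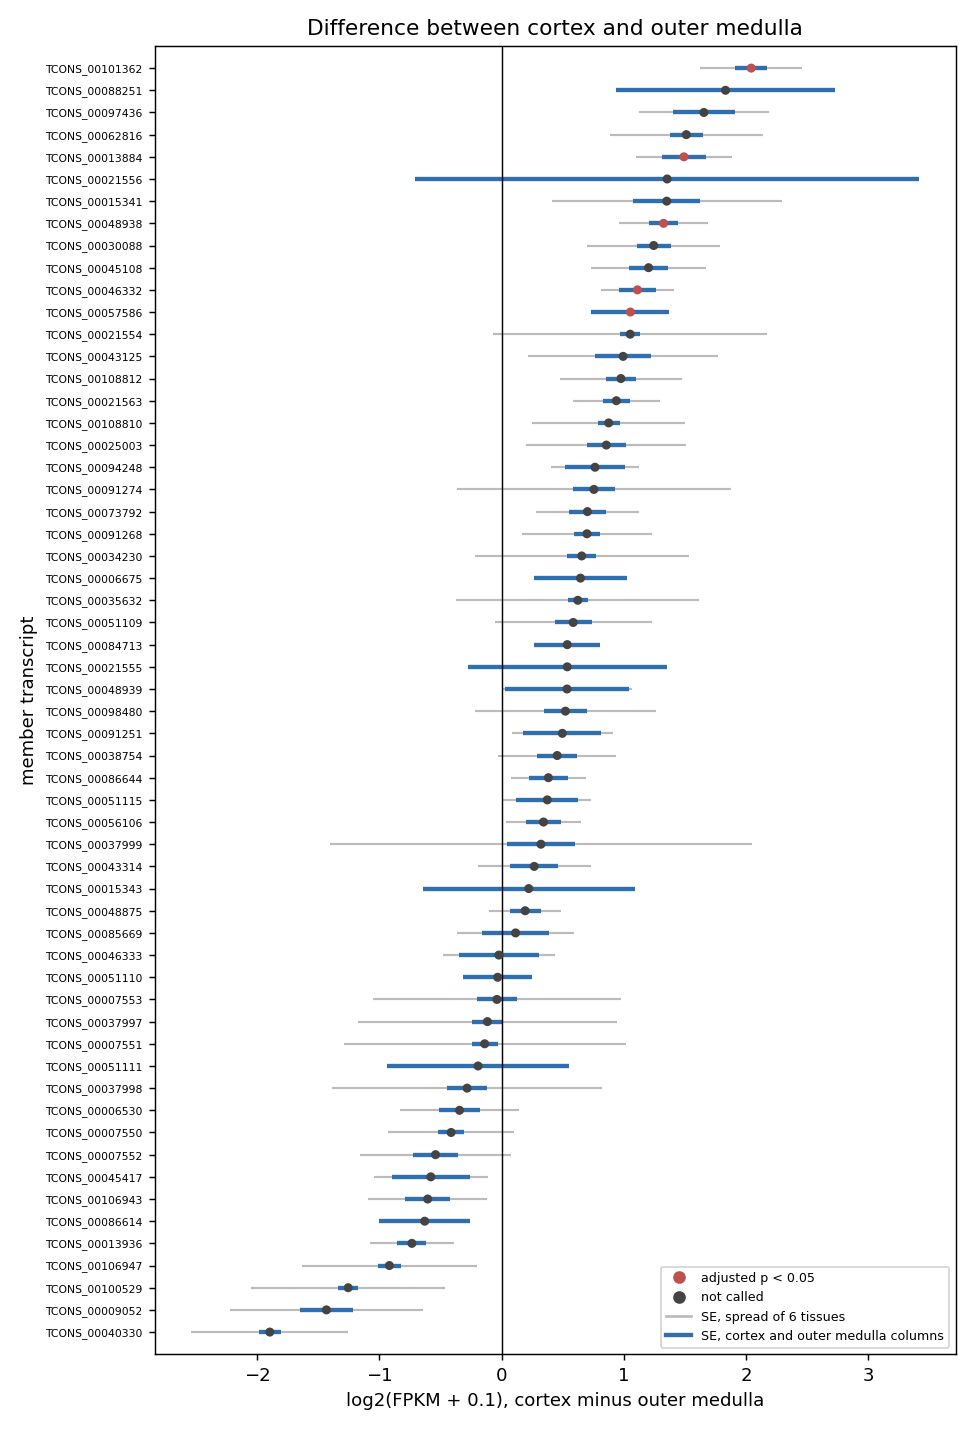
Difference between cortex and outer medulla for each of the 58 members, as log2(FPKM + 0.1) in cortex minus outer medulla (positive, higher in cortex), in order of size; red points are the 5 with an adjusted p below 0.05. Grey bars are the SE with the spread pooled over 6 tissues (median 0.53) and blue bars the SE with the cortex and outer medulla columns alone (median 0.167).

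Most members were stable between the columns of a tissue. Columns 1 and 2 lay within 1.5-fold of each other for 81.0% of the members in cortex and 84.5% in outer medulla, on FPKM + 0.1, against 71.0% of the 472 transcripts at FPKM 1 or more in cortex and 73.1% of the 432 in outer medulla. The largest gap was in TCONS_00021556 (chromosome 11, 12488963 to 12523584), with 0.646 and 3.02 FPKM in the cortex columns and 0.000565 and 3.45 in those of outer medulla. TCONS_00021555, of the same locus and 13 bases shorter, went the other way, with 4.88 and 2.29 in the cortex columns and 4.51 and 1.13 in those of outer medulla. Summed, the pair had 5.53 and 5.31 in the cortex columns and 4.51 and 4.57 in those of outer medulla, so the sum held steady and the split between 2 similar transcripts did not, with more for TCONS_00021555 in column 1 of both tissues. How fragments were divided between such transcripts was not given in the sources used here. Wide gaps were also seen in TCONS_00088251 in outer medulla, above, and in TCONS_00015343 (chromosome 10, 47440265 to 47450549), with 4.57 and 0.935 in the cortex columns and 2.39 and 1.33 in those of outer medulla. TCONS_00051111 (chromosome 19, 27667530 to 27699662) had 0.526 and 2.12 in the cortex columns and 1.61 and 0.96 in those of outer medulla.

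Several members came from shared loci. At 9 loci 2 or more transcripts qualified, 25 of the 58 in all, and 20 members were alone at their locus in the table. The member loci held 37 further transcripts that did not qualify, of which 11 missed only the FPKM minimum, 2 only the ratio and 24 both. At XLOC_022868, the locus of TCONS_00037997, that transcript made up 57.0 and 57.8% of the sum in cortex and 58.4 and 58.3% in outer medulla. TCONS_00038006 of this locus was no member, since it had 0.372 and 0 FPKM in the cortex columns and 4.85 and 6.34 in those of outer medulla. It made up 0.263 and 0% of the locus in cortex and 2.95 and 3.81% in outer medulla.

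At XLOC_028534 on chromosome 17 the shares of the members differed between the tissues without overlap. TCONS_00046333, the short member of 1085 bases, made up 20.3 and 30.4% of the locus in cortex and 44.4 and 47.3% in outer medulla, while TCONS_00046332 made up 37.4 and 38.7% in the cortex columns and 33.4 and 28.1% in those of outer medulla. The FPKM of TCONS_00046333 was 1.49 and 2.45 in the cortex columns and 1.67 and 2.27 in those of outer medulla, which overlapped. TCONS_00108810 and TCONS_00108812 (chromosome 9, 19284677 to 19311302), of 11073 and 9519 bases, kept nearly fixed shares, with 58.1 and 56.6% for TCONS_00108810 in cortex and 60.2 and 58.2% in outer medulla. TCONS_00108810 had 7.01 and 7.36 FPKM in the cortex columns and 3.83 and 3.91 in those of outer medulla. TCONS_00108812 had 5.05 and 5.66 in the cortex columns and 2.53 and 2.81 in those of outer medulla, so both were higher in cortex in every column.

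At XLOC_056809 on chromosome 6 (23353151 to 23420140) the members were TCONS_00091274, of 3547 bases, and TCONS_00091268, of 20124 bases. TCONS_00091274 had 8.19 and 10.8 FPKM in the cortex columns and 5.38 and 5.72 in those of outer medulla, and TCONS_00091268 had 7.49 and 7.21 in the cortex columns and 4.24 and 4.76 in those of outer medulla. TCONS_00091251 lay 108 kb away at another locus, with 1.2 and 1.88 in the cortex columns and 1.19 and 0.904 in those of outer medulla. XLOC_031594 on chromosome 19 held the most transcripts, 9 in all, of which 4 qualified, and the highest mean among these 4 was 2.65, that of TCONS_00051109 in cortex. Their shares of the locus ran from 4.71 to 23.8% in cortex and from 13.2 to 25.7% in outer medulla.

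At the locus on chromosome 11 that holds TCONS_00021555, the remaining members were steady. TCONS_00021554 had 11.6 and 11 FPKM in the cortex columns and 5.44 and 5.37 in those of outer medulla, and TCONS_00021563 had 4.21 and 4.23 in the cortex columns and 2.20 and 2.11 in those of outer medulla. Both were higher in cortex without overlap. TCONS_00048939, beside the called TCONS_00048938, had 1.17 and 2.99 in the cortex columns and 1.15 and 1.40 in those of outer medulla, which overlapped.

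TCONS_00015341, of 512 bases, shared its locus on chromosome 10 with TCONS_00015343. It had 15.4 and 12.3 FPKM in the cortex columns and 6.65 and 4.26 in those of outer medulla. The locus also held TCONS_00015342, with 3.26 and 5.36 in the cortex columns and 0 and 1.37 in those of outer medulla, and TCONS_00015345, with 4.86 and 10.4 in the cortex columns and 0.000576 and 1.40 in those of outer medulla. Neither qualified, since the mean of each in outer medulla was under 1. TCONS_00015345 also missed the ratio, at 0.91, with a mean of 0.778 FPKM in left ventricle.

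At the locus of TCONS_00057586, the transcripts TCONS_00057577, TCONS_00057584 and TCONS_00057599 had cortex means of 1.34, 1.41 and 1.94 FPKM and outer medulla means of 0.383, 0.45 and 0.603. All of them were higher in cortex in every column, as TCONS_00057586 was, and missed only the FPKM minimum in outer medulla. The further transcripts of member loci at 1 FPKM or more somewhere were TCONS_00006673, TCONS_00045107, TCONS_00046336, TCONS_00051112, TCONS_00051116 and TCONS_00073793. Their means ran from 1.06 to 2.92 in cortex and from 0.265 to 1.19 in outer medulla.

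The remaining members of XLOC_031594 were of similar level. TCONS_00051109 had 2.66 and 2.64 FPKM in the cortex columns and 1.60 and 1.87 in those of outer medulla, and TCONS_00051115, of 20784 bases, had 1.73 and 1.91 in the cortex columns and 1.13 and 1.68 in those of outer medulla. TCONS_00051110 had 1.38 and 0.909 in the cortex columns and 1.14 and 1.16 in those of outer medulla. The tissues did not overlap for TCONS_00051109 and TCONS_00051115, where cortex was higher, and overlapped for TCONS_00051110.

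**Figure D4:**
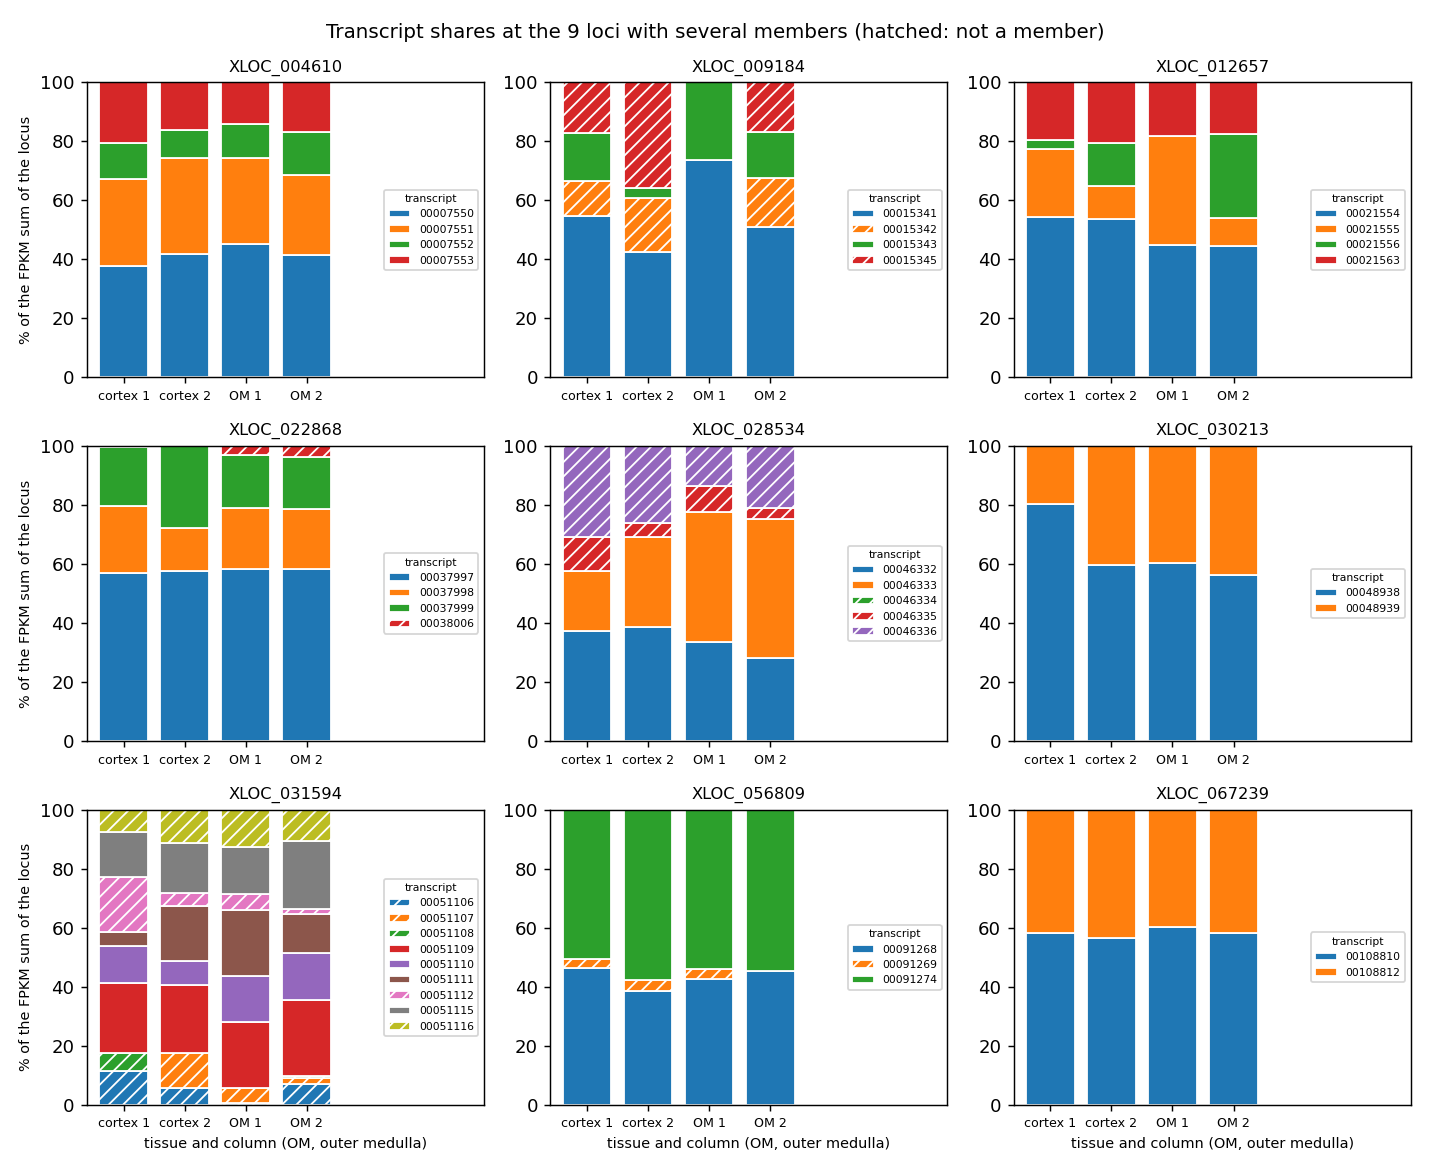
Share of the FPKM sum of a locus (vertical, %) taken by each listed transcript in both columns of cortex and outer medulla (OM), for the 9 loci with several members; hatched segments are transcripts that did not qualify. Shares were alike in all 4 columns at XLOC_067239 and moved between transcripts at XLOC_012657, where TCONS_00021555 and TCONS_00021556 traded places between columns.

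The members ranged from 310 to 39024 bases in length, with a median of 2588. That of all 1722 transcripts with no reference gene was 1934. Transcripts of 8 kb or more made up 17.2% of the members (10) and 9.47% of the unannotated transcripts, and those under 500 bases 10.3% (6) and 6.27%. The longest was TCONS_00048875 (chromosome 18, 59610154 to 59649291), which covered 99.7% of its interval, so little of the interval is left for introns. It had 2.65 and 2.78 FPKM in the cortex columns and 2.27 and 2.46 in those of outer medulla, and with a ratio of 3.21 it was the member nearest to the 3-fold limit, since left ventricle had 0.784 and 0.55 and every other column at least 0.208. Among the 20 members alone at their locus, 5 covered 90% or more of the interval (25%), against 7.81% of 794 such unannotated transcripts. The other 4 were TCONS_00013936 (described above), TCONS_00086644 (chromosome 5, 136937546 to 136943795), TCONS_00034230 (chromosome 14, 22788097 to 22789262) and TCONS_00056106 (chromosome 2, 173290349 to 173298792). There were 9 members on chromosome 1 (15.5%, against 15.1% of the unannotated transcripts) and none on chromosomes 3, 12 or X.

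In the 4 other tissues most members were close to 0, and what was left was not evenly spread. The highest other tissue was left ventricle for 36 members, adrenal gland for 8, liver for 6 and hypothalamus for 4, and 4 members were listed at 0 in all 8 columns. Those 4 were TCONS_00015343, TCONS_00086614, TCONS_00088251 and TCONS_00084713. For the short ones, TCONS_00088251 with 321 bases and TCONS_00086614, a listed 0 says less, since over fewer bases it allows a higher FPKM. TCONS_00086614, of 377 bases, had means of 1.77 FPKM in cortex and 2.83 in outer medulla, with columns that overlapped. As a share of the mean of cortex and outer medulla, the median member stood at 6.64% in left ventricle column 1 and 0.902% in column 2, and at 2.76% in adrenal gland column 1 and 1.14% in column 2. In liver and hypothalamus the median was 0.0139% or less in each column. Left ventricle column 1 was above column 2 for 43 members and below it for 9, and adrenal gland column 1 was above column 2 for 37 and below it for 12. Neither these counts nor those of the highest other tissue were made for other transcripts, so they are not shown to be particular to the members. The adrenal gland columns implied 13510000 and 17600000 fragments and those of left ventricle 10240000 and 10150000; the part of depth in these gaps was not tested.

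The FPKM sum over all members, as a share of their summed cortex and outer medulla means, was 5.77% in left ventricle column 1 and 1.75% in column 2. The same share was 3.32 and 1.14% in adrenal gland, 1.37 and 3.48% in liver, and 0.507 and 0.753% in hypothalamus. The transcript overlapping Slc12a1 had 1.5 and 0.146 FPKM in adrenal gland, 0 and 1.32 in liver, 0.25 and 0.491 in left ventricle, and 0 in both hypothalamus columns. It has 530 bases, and at values this low the order of its 2 columns in a tissue can rest on few fragments. The part of kidney RNA in these low values was not tested. At a depth of 3875000 fragments, a count of 0 over 1 kb of usable length allows up to 0.774 FPKM in liver column 2, against 0.0941 in hypothalamus column 2 (3 fragments, counting error only). Over less usable length, as in the members under 500 bases, these limits are higher. In a table without counts a listed 0 can also be a failed estimate.

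**Figure D5:**
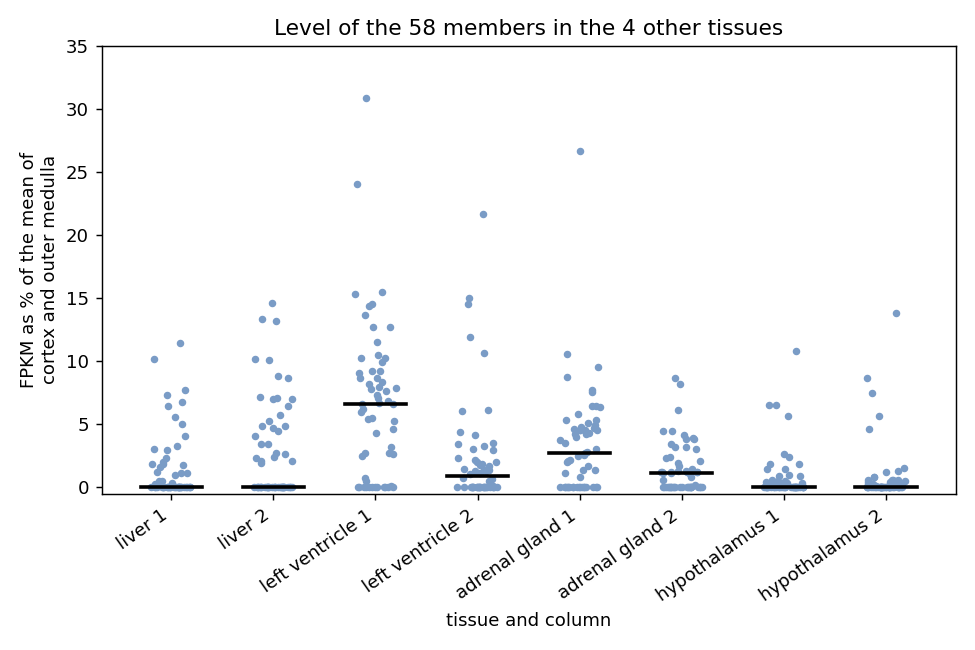
Level of each of the 58 members (points, spread sideways at random) in the 8 columns of the other tissues, as % of its mean over cortex and outer medulla; black bars are medians. Left ventricle column 1 has the highest median, 6.64%, and column 2 of the same tissue 0.902%.

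The members with the highest level outside cortex and outer medulla were among the most abundant ones. TCONS_00037997 had a mean of 5.55 in liver, TCONS_00037999 had 1.19 in left ventricle, TCONS_00100529 had 1.07 in adrenal gland and TCONS_00007550 had 1 in left ventricle. These were the only 4 members at a mean of 1 or more in another tissue, and 10 reached 0.5.

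Near the limits of the selection the values were close together. Just inside the FPKM minimum, besides TCONS_00101362, were TCONS_00091251, with means of 1.54 in cortex and 1.05 in outer medulla, and TCONS_00006675, with 1.74 and 1.08. Just outside it were TCONS_00057380, with 1.90 and 0.98, TCONS_00046337, with 3.63 and 0.971, and TCONS_00002899, with 1.18 and 0.927 in the same order. Just inside the ratio of 3, besides TCONS_00048875, were TCONS_00048939 at 3.24 and TCONS_00101362 at 3.62, and just outside it were TCONS_00053546 at 2.94, TCONS_00101965 at 2.93 and TCONS_00106946 at 2.84. Taken column by column, 47 of the 58 met all limits in column 1 alone, 50 in column 2 alone and 40 in both.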

How the data were processed

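The authors deposited 1 table of FPKM values for transcripts selected as lncRNAs, with transcript lengths in bases as a value of another kind; per the file headers its layout is the tracking format of Cufflinks. Build rn5 and bcl2fastq 2.15.0 are named, per the submitters' processing notes. Aligner, estimating program, annotation and strand setting were not given in the sources used here. Of 2458 transcripts, 3 had no values. No rn5 genome was used here, so no sequence is shown.

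Columns were assigned to tissues by their codes. Means over the 2 columns of a tissue chose the members. limma 3.58.1 in R 4.3.3 was fitted with a mean-variance trend over 12 columns; the added 0.1 understates differences of low transcripts. Python 3.11.15, pandas 2.3.3, NumPy 2.4.6 and matplotlib 3.10.9 did the rest. Implied depth came from low values of transcripts over 500 bases alone at their locus, assuming fragments of 140 bases; 81.9 to 89.9% lay within 0.15 of a whole number. The fit was tested on simulated data. Alternatives changed the pseudocount, the limits, the scaling, the spread, the block and the columns used.

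The members and lists were chosen with earlier results of these data known. By rule the text names the 12 highest members, the 6 with the largest ratio, the 5 largest and 5 lowest differences between cortex and outer medulla, members of loci with 2 or more, the 5 widest column gaps, the 4 highest in other tissues, the 3 longest and 3 shortest, 3 transcripts on each side of each limit, other transcripts of member loci at FPKM 1 or more, and members within 50 kb of another or of an assigned transcript. Members named for interval coverage or for 0 in all other columns, and the sum of a transcript pair, were chosen after values were seen.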

Additional observations from a re-analysis of the deposited data

How the results depend on the processing

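The number of members was 20 with a pseudocount of 1, 95 with an FPKM minimum of 0.5 and 24 with a minimum of 2. It was 44 after columns were rescaled, 40 when each column had to qualify, 48 loci on FPKM summed per locus (40 of the 42 member loci), and 56 to 63 without any 1 column. The number called between cortex and outer medulla (5) was 0 with a pseudocount of 0.01, 29 with a pseudocount of 1, 2 with no FPKM minimum, 24 with the spread of cortex and outer medulla columns alone, and 2 loci on FPKM summed per locus. Of all tested, 21.4% were called with the values as reported, and 6.79, 40.4, 6.27, 29.6 and 24.5% under these alternatives in the same order. Without any 1 column the members called were 0 to 8. It was 0 without cortex column 1, cortex column 2 or outer medulla column 1, 1 without either hypothalamus column, and 8 without either left ventricle column; a lone remaining column of a tissue is assumed to vary like the others. Over the whole table the share called also fell without a cortex, outer medulla or hypothalamus column and rose without a left ventricle column. With column number as a replicate block 4 calls were left, against 19.9% of all tested. With the outer medulla numbers crossed, an alternative chosen after seeing the data, there were 6, against 19.7% of all tested. Nothing in the labels pairs the columns, and deviations of cortex and outer medulla correlated at -0.10 across 604 transcripts. The median difference (0.53) was 0.32 with a pseudocount of 1, 0.66 after rescaling, and 0.38 to 0.62 without any 1 column. The 13 members that were called or had the largest differences were followed singly: in 247 recomputed differences none changed direction, 38 lost a call and 25 gained one. Of all 58, 12 changed direction in at least 1 setting: 4 after rescaling, 4 without cortex column 1, 4 without cortex column 2, 2 without outer medulla column 1 and 5 without outer medulla column 2. The only one of these 12 with a difference of 1 or more in size was TCONS_00021556, at 1.35. It was outside the 5 largest and 5 lowest differences, so it was not followed singly. The cause of the changes in direction was not tested. The implied depth was lowest in liver column 2, at 3875000 fragments. Members under 500 bases and alone at their locus had about 22 fragments or fewer in each cortex and outer medulla column. What depth limits beyond this was not tested.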

Other observations

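Transcripts assigned to a reference gene met the same thresholds in 19 cases, at 15 loci, outside the 58 described above. Besides that at Slc12a1 they included a transcript sharing a splice junction with Irx2, a homeobox transcription factor of the Iroquois family, with 1.06 and 1.42 FPKM in the cortex columns and 2.06 and 1.92 in those of outer medulla. A transcript antisense to Fggy, a carbohydrate kinase gene, had 2.02 and 2.09 in the cortex columns and 4.95 and 4.67 in those of outer medulla, and one antisense to Vstm5 had 12.3 and 10.8 in the cortex columns and 3.17 and 3.92 in those of outer medulla. A transcript antisense to Mxi1, a repressor that competes with Myc for its partner Max, had 4.64 and 3.82 in the cortex columns and 3.85 and 2.88 in those of outer medulla. These 4 were chosen after their values were seen.

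Unannotated transcripts that met the thresholds for only 1 of the pair numbered 110 for cortex and 48 for outer medulla. Their median lengths were 1538 and 1688 bases, against 2588 for the 58 shared ones, and transcripts of 8 kb or more made up 8.18 and 8.33%, against 17.2% of the shared ones and 21.1% of the 19 assigned transcripts. These are descriptions of the table and carry no test.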
